A study of Mus musculus with 3 samples.

Results

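The 53 genes described here encode core and auxiliary proteins of pre-mRNA splicing. They were taken from 21883 protein-coding genes of the GRCm38.p6 RefSeq table by their symbols, which start with Snrp, Srsf, Sf3a, Sf3b or Hnrnp. Peaks were assigned to a gene when the summit lay inside it or within 5 kb of it. Chromatin came from alveolar type II (AT2) cells, the surfactant-producing epithelial cells of the lung alveolus, isolated from C57BL/6 mice of 10 to 12 weeks. The 3 samples comprised 1 library immunoprecipitated for ETV5, 1 for trimethylated lysine 4 of histone H3 (H3K4me3), and 1 input without antibody. No genotype or treatment separated them, and the number of animals behind the cells was not given in the sources used here. Chromatin was fixed with 1% formaldehyde and sheared to between 300 and 500 bp.

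Introns are removed by the spliceosome, which is assembled from small nuclear ribonucleoproteins (snRNPs). The U1 snRNP recognises the splice donor, the U2 snRNP recognises the branch site, and a ring of Sm proteins surrounds the snRNA of most snRNPs. SR proteins and heterogeneous nuclear ribonucleoproteins (hnRNPs) bind the pre-mRNA itself and influence which splice sites are used. ETV5 belongs to the ETS family of transcription factors, responds to ERK signalling, and is known in mouse for maintaining AT2 cell identity. H3K4me3 marks active promoters.

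The peak lists rested on 5715049 ETV5 tags and 34907608 H3K4me3 tags and held 31156 and 15129 peaks on assembled chromosomes. With 1 library per antibody no value has a replicate check, no test between samples was possible, and the intervals given are exact 95% Poisson intervals that cover counting error only. The pileup of a peak is the number of overlapping fragments at its summit, and pileups of the ETV5 and H3K4me3 lists are not on a common scale because the libraries differed in depth. All 10 AT2 markers carried H3K4me3, with longest peaks of 3539 to 12934 bp. H3K4me3 was also present at 1 of 5 endothelial, 2 of 5 leukocyte, 0 of 5 mesenchymal and 1 of 5 airway markers. Those peaks, at Tek, Cd68, Spi1 and Foxj1, measured 445 to 1379 bp. ETV5 lay at all 10 AT2 markers, against 63.1% of all protein-coding genes. It also lay at 3 of 5 endothelial, 2 of 5 leukocyte, 3 of 5 mesenchymal and 2 of 5 airway markers. The part of other cells in the values below was not tested.

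Nearly all of the splicing factor genes carried both marks. H3K4me3 lay at 52 of the 53 genes (98.1%), against 59.4% of all protein-coding genes. ETV5 lay at 50 of the 53 (94.3%), against 63.1% of all protein-coding genes and 95.2% of those with H3K4me3, so that the share with ETV5 was close to that of marked genes in general. An ETV5 peak that overlapped H3K4me3 lay at 50 of the 53 (94.3%), against 55.8% of all protein-coding genes, with or without ETV5 or H3K4me3. That background was 12213 genes, beside 12997 genes with H3K4me3, so that the excess is not separate from that in H3K4me3 itself. The 53 genes had 81 different ETV5 peaks and 70 different H3K4me3 peaks. Of these ETV5 peaks 73 (90.1%) overlapped H3K4me3, against 48.9% in the whole list, which was not limited to peaks at genes.

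The ETV5 peaks at these genes were higher and the H3K4me3 peaks longer than those of most genes. The highest ETV5 pileup of a member had a median of 57.5 fragments (quartiles 39.2 and 90.8, range 11 to 185), against 30 fragments (18 and 53) over the 13805 protein-coding genes with ETV5. Of the 50 members with ETV5, 41 lay above that all-gene median, which 49.9% of all genes exceed, and 30 (60%) lay above the upper quartile, which 24.4% of all genes exceed. The longest H3K4me3 peak had a median of 2158 bp over 52 members, against 1477 bp over 12997 genes. Of the 52, 31 (59.6%) lay above the all-gene upper quartile of 1947 bp, which 25.0% of all genes exceed. Of these 31, 18 were hnRNP and 9 were SR genes. No chance level was computed for these shares, and the genes of a family are not replicates of each other.

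**Figure D1:**
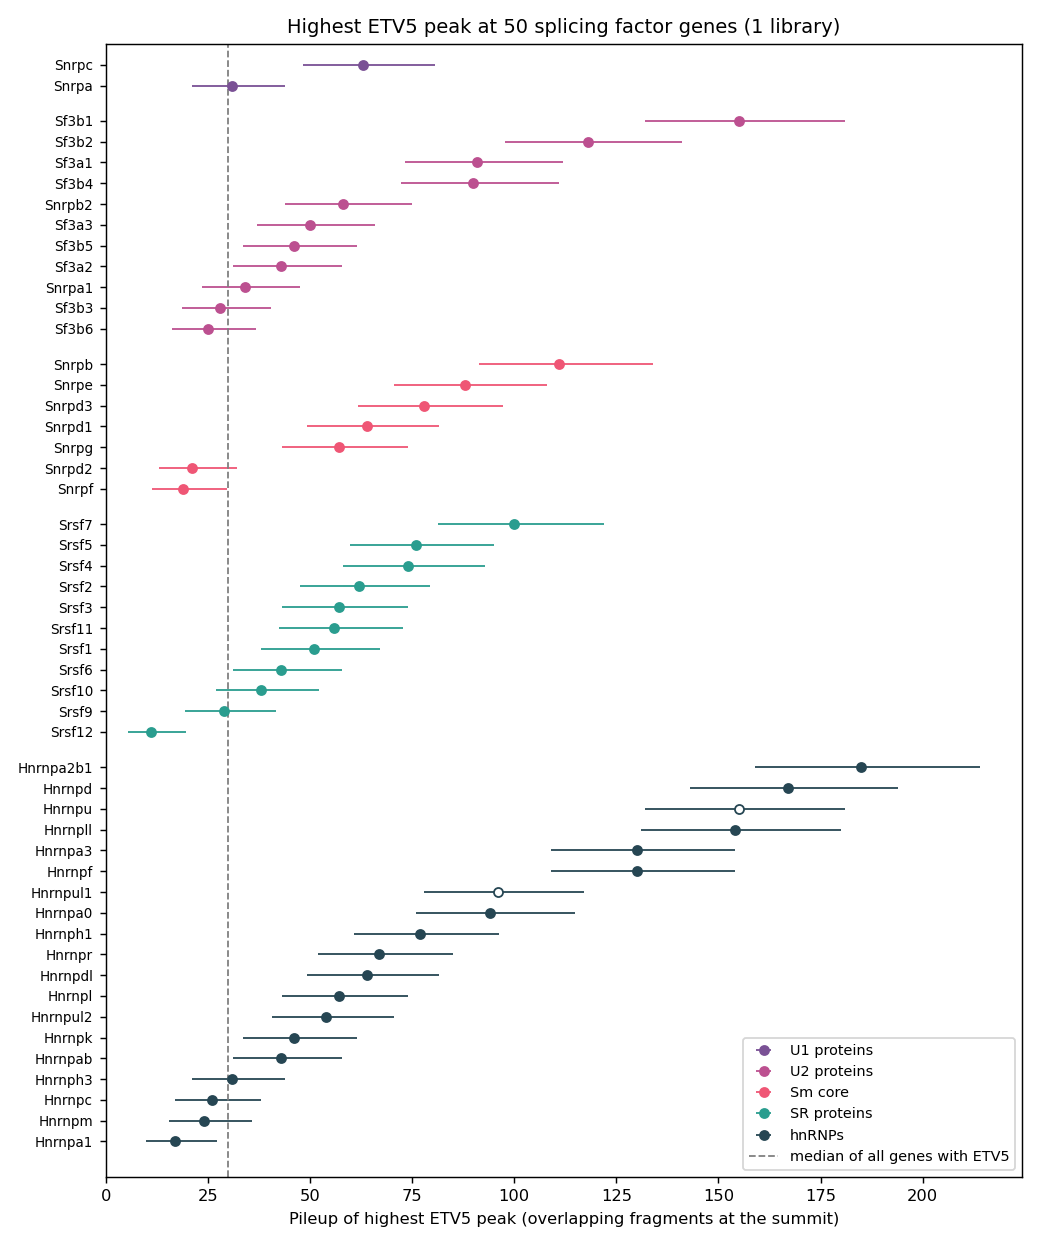
Highest ETV5 pileup (overlapping fragments at the summit) of each of the 50 splicing factor genes with ETV5, by role, with exact 95% Poisson intervals. Open points are peaks more than 1 kb from the gene's own annotated start (Hnrnpu and Hnrnpul1). Filled points include Hnrnpll, Hnrnpul2, Sf3b4, Sf3b5, Snrpb and Snrpd1, which have no start in the promoter table. The dashed line is the median of 30 fragments over all genes with ETV5, which 41 of the 50 exceed.

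Among the U1 proteins, Snrpc, which stabilises pairing of the U1 snRNP with the splice donor, had the higher ETV5 peak. Its pileup was 63 fragments (interval 48.4 to 80.6; chr17:27839790-27840368), with the summit 10 bp downstream of the start. Snrpa, which binds a stem-loop of the U1 snRNA, had 31 fragments (21.1 to 44) with a summit 242 bp downstream of its start, in a peak also within 5 kb of BC024978, whose start lay 21 bp away on the other strand. Both genes carried H3K4me3 at the start, 1315 bp long at Snrpc and 1480 bp at Snrpa.

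All 11 U2 genes had ETV5 inside H3K4me3, with a median highest pileup of 50 fragments. The highest was at Sf3b1, which encodes the largest subunit of the branch-site complex SF3b, with 155 fragments (132 to 181; chr1:55026737-55027810), 130 bp downstream of the start. Sf3b2, which encodes another SF3b subunit, had 118 fragments (97.7 to 141; chr19:5294950-5295996) with the summit 80 bp upstream of the start. Sf3a1, a subunit of the SF3a complex that joins SF3b in the U2 snRNP, had 91 fragments (73.3 to 112; chr11:4160009-4160834), 21 bp downstream of its start. Sf3b4 had 90 fragments (72.4 to 111; chr3:96171913-96173008).

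The remaining U2 genes ranged from 58 fragments at Snrpb2 to 25 at Sf3b6. The lowest values were at Sf3b3, with 28 fragments (18.6 to 40.5), and at Sf3b6, which contacts the branch-site adenosine, with 25 (16.2 to 36.9). The intervals of these lowest genes did not overlap those of Sf3b1, Sf3b2, Sf3a1 and Sf3b4, so that within one complex the counts at the summit differed by more than counting error. Sf3a2, Sf3a3, Sf3b5 and Snrpa1 had 43, 50, 46 and 34 fragments. Sf3b2 had 4 ETV5 peaks in all. Of its other peaks, 1 of 33 fragments lay nearest to Pacs1, and those of 9 fragments each lay 1962 and 2681 bp upstream of the Sf3b2 start, nearest to Gal3st3.

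Among the Sm genes with ETV5, Snrpd2 and Snrpf had the lowest counts. Snrpb, which encodes the Sm B proteins, had 111 fragments (91.3 to 134; chr2:130178547-130179760), Snrpe 88 (70.6 to 108; chr1:133609713-133610473), Snrpd3 78 (61.7 to 97.3), Snrpd1 64 (49.3 to 81.7) and Snrpg 57 (43.2 to 73.9). Snrpd2 had 21 (13 to 32.1) and Snrpf 19 (11.4 to 29.7), and neither interval overlapped any of the 5 higher ones. Within those 5, the interval of Snrpb did not overlap those of Snrpd1 and Snrpg. The products of these 7 genes are needed in equal number for a ring. All 7 genes carried H3K4me3, with highest pileups of 171 fragments at Snrpd2, 219 at Snrpf and 242 to 397 at the others. The lowest H3K4me3 pileups of the 7 were thus at the same genes as the lowest ETV5 counts, a relation that was not tested. Snrpn, the eighth Sm gene, is an imprinted paralog of Snrpb known mainly from brain. It had no ETV5 peak, and the nearest ETV5 summit lay 753477 bp from the annotated extent of the gene. Its H3K4me3 peaks were low, with pileups of 56 (42.3 to 72.7; 1181 bp, shared with Snurf) and 41 fragments (29.4 to 55.6; 1117 bp). The RefSeq extent of Snrpn spans 467683 bp.

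All 11 SR protein genes had ETV5 inside H3K4me3, with a median highest pileup of 56 fragments. Srsf7, which also takes part in mRNA export, had 100 fragments (81.4 to 122; chr17:80206319-80207874). Srsf5 had 76 (59.9 to 95.1; chr12:80945121-80946432), Srsf4 had 74 (58.1 to 92.9; chr4:131873152-131874601) and Srsf2 had 62 (47.5 to 79.5; chr11:116851961-116854228). The interval of Srsf7 overlapped those of Srsf5 and Srsf4 but not that of Srsf2, and the intervals of Srsf5, Srsf4 and Srsf2 overlapped each other, so that their order is not resolved by the counts. Srsf1, the founding member of the family, had 51 (38 to 67.1), with Srsf3 at 57, Srsf11 at 56, Srsf6 at 43, Srsf10 at 38 and Srsf9 at 29 fragments.

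Srsf12 stood at the low end in both lists. Its ETV5 peak had 11 fragments (5.49 to 19.7; chr4:33209345-33209647), the lowest of the 50 members, and its H3K4me3 peak had a pileup of 40 (28.6 to 54.5) and a length of 617 bp, the shortest of the 52. Srsf11 had an ETV5 peak of 56 fragments and another of 49 (36.3 to 64.8), each 192 or fewer bp from 1 of its 2 annotated starts and each in an H3K4me3 peak of its own, of 1392 and 1510 bp. Srsf10, an SR protein known as a splicing repressor, had 3 ETV5 peaks. That of 38 fragments lay 27 bp downstream of the start, that of 22 lay 555 bp downstream, and that of 26 lay at the neighbouring Pnrc2.

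The hnRNP genes held 4 of the 5 highest ETV5 peaks of the 50 members, and also some of the lowest. Hnrnpa2b1, whose product commonly represses exon inclusion and binds RNAs for transport, had 185 fragments (159 to 214; chr6:51468820-51471305), the highest of all members and at the 98.9th percentile of genes with ETV5. Hnrnpd, which binds AU-rich elements and influences mRNA decay, had 167 (143 to 194; chr5:99977666-99979628). Hnrnpll, a regulator of exon choice in lymphocytes, had 154 (131 to 180; chr17:80061083-80062885). Hnrnpa3 and Hnrnpf, of which Hnrnpf binds runs of guanines, had 130 fragments each (109 to 154).

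The value at Hnrnpu, a nuclear scaffold and RNA-binding protein, depended on the neighbour. Its highest peak within 5 kb, of 155 fragments (132 to 181; chr1:178318179-178319443), had its nearest gene end at Cox20 and lay 19071 bp downstream of the Hnrnpu start. The highest peak nearest to Hnrnpu itself had 115 fragments (94.9 to 138; chr1:178336313-178338168), 1266 bp downstream of the start. At Hnrnpul1 the peak of 96 fragments likewise lay nearest to Ccdc97, 35735 bp from the Hnrnpul1 start, where a peak of 56 fragments (42.3 to 72.7) lay 75 bp downstream. With peaks counted only within 1 kb of a gene's own start, 43 of the 47 members with an annotated start in the promoter table had ETV5 (91.5%, against 54.9% of all such genes), with a median of 57 fragments against 29. The share was 97.3% for other splicing genes, and 93.8, 100 and 90.7% for cytosolic ribosomal, mitochondrial ribosomal and proteasome genes.

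At the low end, Hnrnpa1, one of the most abundant hnRNPs, had 3 ETV5 peaks, of 17 (9.9 to 27.2), 15 (8.4 to 24.7) and 13 fragments (6.92 to 22.2), in a 2429-bp H3K4me3 peak of 260 fragments (229 to 294). Hnrnpm had 24 (15.4 to 35.7), Hnrnpc 26 (17 to 38.1) and Hnrnph3 31 fragments (21.1 to 44), although their H3K4me3 pileups were 348, 391 and 382. The interval of each of these 4 genes lay below that of Hnrnpa0, which had 94 fragments (76 to 115). Between them lay Hnrnph1 (77), Hnrnpr (67), Hnrnpdl (64), Hnrnpl (57), Hnrnpul2 (54), Hnrnpk (46) and Hnrnpab (43 fragments). Some hnRNP genes have processed copies elsewhere in the genome, and the placement of tags with several matches is not stated in the labels or headers.

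Apart from Snrpn, 2 members had no ETV5 peak. Hnrnph2, an X-linked relative of Hnrnph1, carried a 2015-bp H3K4me3 peak of 148 fragments (125 to 174; chrX:134600262-134602276) shared with Gla, whose start lay 174 bp away on the other strand. The nearest ETV5 summit lay 15299 bp outside the gene, with 10 fragments (4.8 to 18.4). Among genes with H3K4me3, 82.9% of 391 on X and 95.6% of 12601 on the autosomes had ETV5. Hnrnpa1l2-ps2, which the table lists as protein-coding although its symbol marks a pseudogene, had neither mark. The lowest pileup in the ETV5 list was 5 fragments, so that weaker enrichment at these 3 genes was not detectable at this depth.

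Secondary ETV5 peaks were mostly weak. The 31 peaks that were not the highest of any member had a median pileup of 12 fragments (6 to 115). A lower pileup than that of the highest peaks is set by this choice, and no value for such peaks over all genes was computed. Of the 81 ETV5 peaks, 8 lay outside H3K4me3, at Hnrnph3, Hnrnpl, Hnrnpm, Hnrnpr, Sf3b2, Snrpd2, Snrpf and Srsf4. They had 7 to 12 fragments, with a median of 9, the same as the median of 9 over the 15927 ETV5 peaks outside H3K4me3 in the whole list, and measured 203 to 466 bp. No member had its highest ETV5 peak outside H3K4me3. At least 2 ETV5 peaks were present at 20 of the 53 members (37.7%, against 36.4% of all protein-coding genes) and at least 3 at 8 (15.1%, against 20.7%), shares near the background. The 8 were Hnrnpa0, Hnrnpa1, Hnrnpl, Hnrnpu, Hnrnpul1, Hnrnpul2, Sf3b2 and Srsf10, of which Hnrnpl had 5.

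H3K4me3 peaks were longer at the hnRNP and SR genes than at the snRNP genes, a difference that was not tested. The longest H3K4me3 peak had a median of 2960 bp over 20 hnRNP genes and 2180 bp over 11 SR genes, against 1549 bp over 11 U2 genes, 1452 bp over 2 U1 genes and 1256 bp over 8 Sm genes. All 20 marked hnRNP genes and 10 of the 11 SR genes exceeded the all-gene median, against 7 of the 11 U2 genes and 3 of the 8 Sm genes. Medians of the highest ETV5 pileup were 67 fragments for hnRNP, 56 for SR, 50 for U2, 47 for U1 and 64 for Sm genes. Where only the H3K4me3 peak at the gene's own start was counted, over the 43 members with ETV5 there, median lengths were 2846 bp for 16 hnRNP, 2180 bp for 11 SR, 1522 bp for 9 U2, 1398 bp for 2 U1 and 1331 bp for 5 Sm genes, against 1479 bp for 8807 genes of the whole set. Those 8807 were the genes whose ETV5 peak within 1 kb of the start overlapped H3K4me3. The promoter windows of these roles differed in base composition as well. Their median GC content was 66.3% for hnRNP, 69.0% for SR, 59.0% for U2 and 56.3% for Sm genes, and its part in the lengths was not tested.

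**Figure D2:**
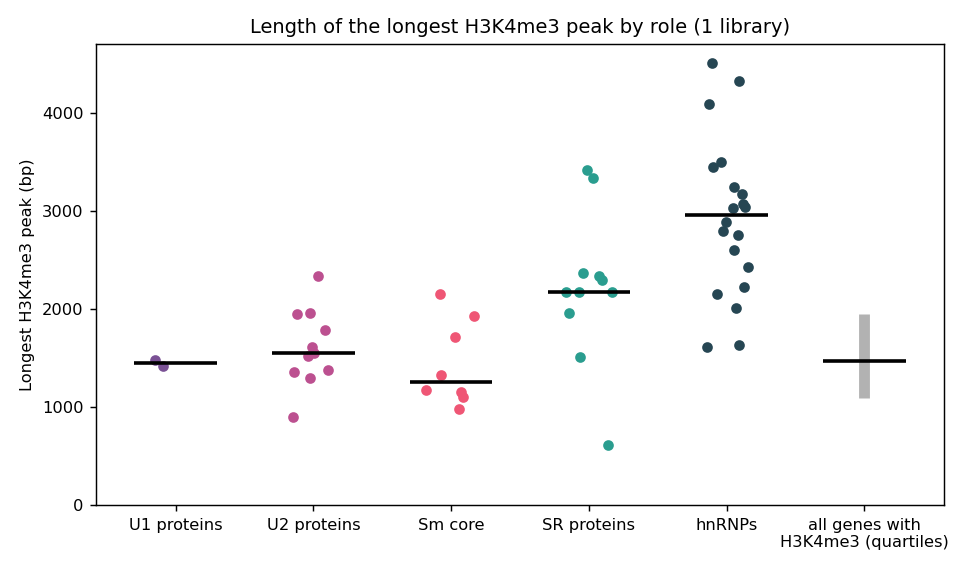
Length of the longest H3K4me3 peak (bp) at each of the 52 splicing factor genes with H3K4me3, by role; horizontal bars are medians, and the grey bar spans the quartiles over all genes with H3K4me3, whose median is 1477 bp. The hnRNP and SR medians lie at 2960 and 2180 bp, and the lowest point is Srsf12 at 617 bp.

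The longest H3K4me3 peak of the 53 genes covered Hnrnpa2b1, with 4510 bp and a pileup of 421 fragments (382 to 463; chr6:51467159-51471668), and also lay within 5 kb of Cbx3. Hnrnpl, which binds CA-rich RNA, had 4327 bp (chr7:28808143-28812469), Hnrnpul2 4096 bp (chr19:8818209-8822304), Hnrnpu 3501 bp (chr1:178335135-178338635) and Hnrnpdl 3454 bp (chr5:100037476-100040929). At Hnrnpl the H3K4me3 summit lay 1938 bp upstream of the 1 start in the promoter table, beside an ETV5 peak of 30 fragments 1894 bp upstream of it. The annotated extent of Hnrnpl begins farther upstream, and these summits lay 406 and 450 bp inside it. The higher ETV5 peak of 57 fragments lay 191 bp downstream of the table's start. Among SR genes the longest were at Srsf3 (3416 bp) and at Srsf2 (3334 bp). The highest H3K4me3 pileup was at Hnrnpu, with 434 fragments (394 to 477). After Srsf12 the shortest longest-peaks were at Sf3a3 (897 bp) and Snrpe (987 bp). At Sf3b2 and Snrpc the longest H3K4me3 peak lay at the neighbours Pacs1 and Uhrf1bp1.

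ETV5 and H3K4me3 were arranged alike at most starts. A start here is one listed in the promoter table, the nearest to the summit where a gene has several, and for some genes, Hnrnpl among them, the annotated extent begins upstream of it. Of 44 members with ETV5 and an annotated start in the promoter table, the highest ETV5 summit lay within 250 bp of a start in 33 (75%, against 53.9% of 11051 genes) and within 500 bp in 41 (93.2%, against 66.6%). Within 250 bp the share was 78.4% for other splicing genes, and 77.4, 82.6 and 68.3% for cytosolic ribosomal, mitochondrial ribosomal and proteasome genes. Within 500 bp these shares were 89.2, 82.3, 88.4 and 73.2%. Closeness to the start is thus not particular to the members. The median signed distance was 13.5 bp downstream of the start, against 75 bp over all genes. The 43 members with ETV5 within 1 kb of the start all had H3K4me3 overlapping that peak. Their ETV5 summit lay at a median of 10 bp downstream of the start and the H3K4me3 summit at 292 bp. These distances were 38 and 213 bp over the 8807 genes whose ETV5 peak there overlapped H3K4me3. The ETV5 summit lay upstream of the H3K4me3 summit in 37 of the 43 (86%, against 70.5% of the 8807). The exceptions were Hnrnpa3, Hnrnpab, Hnrnpk, Hnrnpl, Snrpd3 and Srsf3. H3K4me3 reached a median of 806 bp upstream and 1239 bp downstream of the start, against 553 and 881 bp over all such genes.

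**Figure D3:**
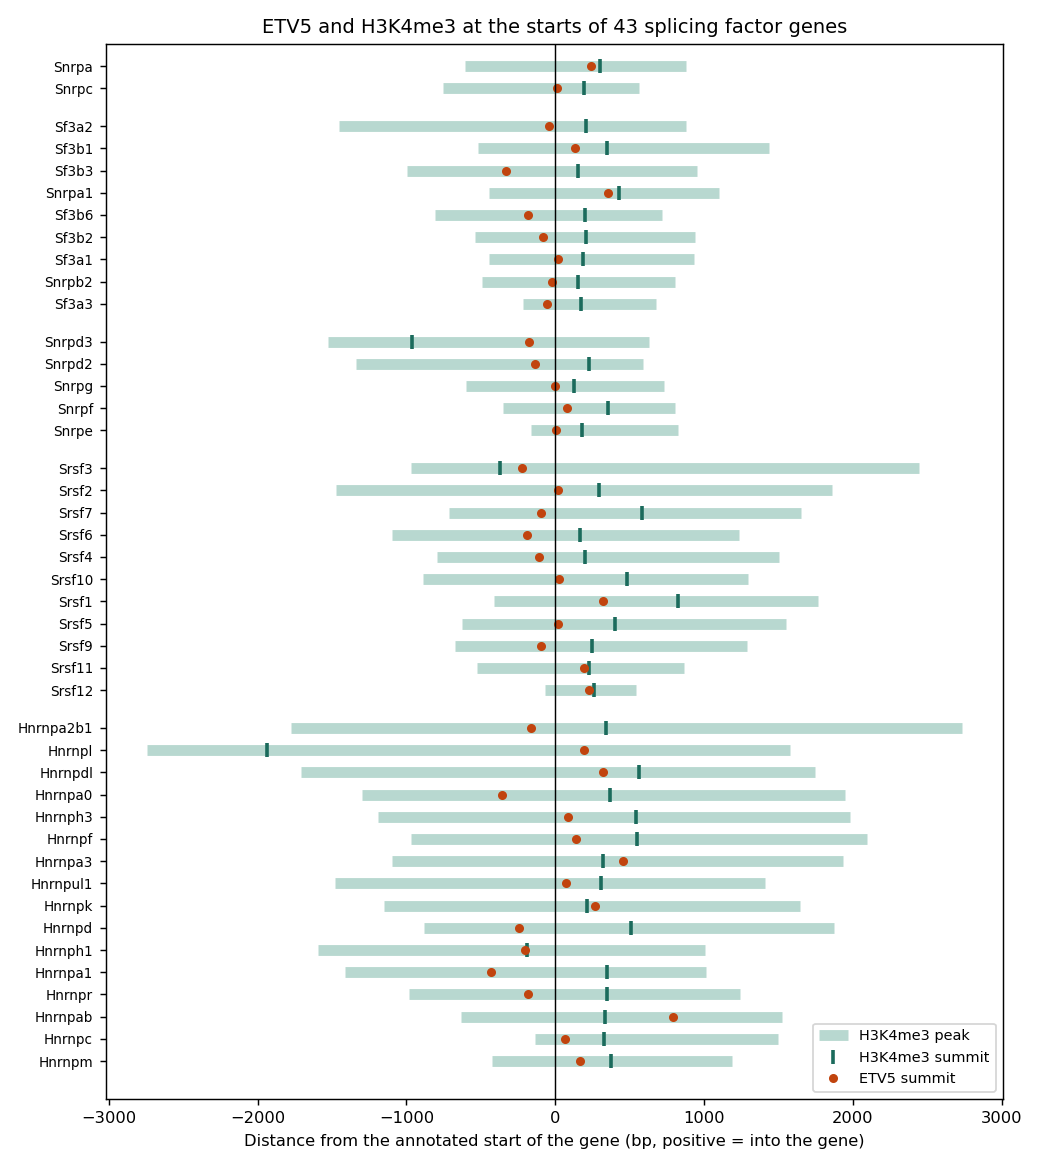
H3K4me3 peaks (bars), their summits (ticks) and the highest ETV5 summit within 1 kb of the start (points) at 43 splicing factor genes, by distance from the annotated start in bp, positive into the gene. In 37 of the 43 genes the ETV5 point lies upstream of the H3K4me3 tick.

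Some of these starts lay close to that of another gene. A protein-coding start on the other strand lay within 1 kb, head to head, at 14 of the 47 members with an annotated start (29.8%, against 8.66% of 17491 genes). This share was not computed for genes with H3K4me3 or for other splicing, ribosomal and proteasome genes. Whether it is particular to the members was therefore not tested. Pairs with starts less than 150 bp apart were Sf3a1 with Ccdc157 (61 bp), Snrpd3 with Gucd1 (70 bp), Srsf11 with Lrrc40 (76 bp), Sf3a2 with Plekhj1 (109 bp) and Hnrnpk with Rmi1 (131 bp), beside Snrpa with BC024978 (21 bp) and Hnrnpd with 4930524J08Rik, whose starts overlapped by 3 bp. Others were Hnrnph2 with Gla (174 bp), Sf3b3 with Cog4 (221 bp), Hnrnpa1 with Cbx5 (545 bp), Hnrnph3 with Pbld2 (663 bp), Srsf2 with Mfsd11 (668 bp), Hnrnpa2b1 with Cbx3 (722 bp) and Hnrnpdl with Enoph1 (772 bp). Cbx3 and Cbx5 both encode heterochromatin proteins of the HP1 family.

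The highest ETV5 peak lay within 5 kb of another protein-coding gene in 25 of 50 members (50%, against 42.9% of genes with ETV5). This held for 14 of the 19 hnRNP genes and for 2 of the 11 SR genes, Srsf2 and Srsf7, of which Srsf7 lay beside Gemin6, which encodes a subunit of the SMN complex that loads Sm rings. In the other roles the genes were Snrpa, Sf3a1, Sf3a2, Sf3b2, Sf3b3, Sf3b4, Snrpd2, Snrpd3 and Snrpg. At 6 members the end nearest to the summit belonged to the other gene, namely Enoph1 for Hnrnpdl, 4933440N22Rik for Hnrnpf, Rmi1 for Hnrnpk, Cox20 for Hnrnpu, Ccdc97 for Hnrnpul1 and Gucd1 for Snrpd3. The share of genes whose highest ETV5 peak was shared in this way was 51% for other splicing genes. It was 61, 61 and 52.1% for cytosolic ribosomal, mitochondrial ribosomal and proteasome genes, so that the members did not exceed these groups. A peak between head-to-head genes cannot be assigned to either from its position.

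The promoter sequences were searched for CCGGAA on both strands (TTCCGG on the other), a core of the sites that ETS factors bind, in the RefSeq windows of GRCm38.p6 from 250 bases before to 50 after the start. Windows were held for 47 members, and not for Hnrnpll, Hnrnpul2, Sf3b4, Sf3b5, Snrpb and Snrpd1. At least 1 match was present in 24 of the 47 (51.1%), against 20.9% of 17491 protein-coding genes with a window. The longer CCGGAAGT was in 9 of the 47, against 5.69% of all, and the short GGAA in 45, against 96.4%. CCGGAA was present in 51.9% of the 3514 genes whose highest ETV5 summit lay in the window and in 6.07% of the 6440 genes with no ETV5. Of 44 members with ETV5 and a window, 23 had the highest ETV5 summit inside it, against 31.8% of such genes, and 17 (73.9%) of these 23 had a match. A gene with several starts was counted where any of its windows held a match, among members and all genes alike. By role the match was in 7 of 9 U2, 4 of 6 Sm, 6 of 11 SR, 1 of 2 U1 and 6 of 19 hnRNP genes. The Sm genes with a match were Snrpd3, Snrpe, Snrpg and Snrpn, of which Snrpn, with no ETV5 peak, held it at 1 of its 4 starts. A match is a description of the letters and not a bound site, and CCGGAA contains a CpG, of which the windows of members held a median of 25 against 14 over all genes; the part of that difference was not tested.

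The windows of the 5 members with the highest ETV5 pileup that hold CCGGAA on either strand show how the match sits before or just after the start, and Sf3b1 is shown as the highest without one. Capitals mark CCGGAA or its complement TTCCGG, each line runs 5′ to 3′ on the strand of the gene, and base 251 is the start. The windows are Hnrnpa2b1 (chr6:51469845-51470144, minus strand), Hnrnpd (chr5:99978889-99979188, minus), Hnrnpu (chr1:178337766-178338065, minus), Hnrnpf (chr6:117906532-117906831, plus), Sf3b2 (chr19:5295408-5295707, minus) and Sf3b1 (chr1:55027429-55027728, minus).
Hnrnpa2b1: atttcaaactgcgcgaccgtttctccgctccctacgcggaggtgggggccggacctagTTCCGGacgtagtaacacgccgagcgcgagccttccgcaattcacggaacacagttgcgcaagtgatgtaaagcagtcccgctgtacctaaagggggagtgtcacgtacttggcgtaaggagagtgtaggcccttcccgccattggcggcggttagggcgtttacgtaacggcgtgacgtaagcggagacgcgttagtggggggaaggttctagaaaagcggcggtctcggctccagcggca
Hnrnpd: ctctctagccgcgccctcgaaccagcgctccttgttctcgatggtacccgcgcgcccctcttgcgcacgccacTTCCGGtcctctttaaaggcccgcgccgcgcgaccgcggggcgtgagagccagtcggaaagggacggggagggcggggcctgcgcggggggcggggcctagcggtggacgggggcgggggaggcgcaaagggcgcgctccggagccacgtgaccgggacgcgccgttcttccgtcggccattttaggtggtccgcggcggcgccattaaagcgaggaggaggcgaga
Hnrnpu: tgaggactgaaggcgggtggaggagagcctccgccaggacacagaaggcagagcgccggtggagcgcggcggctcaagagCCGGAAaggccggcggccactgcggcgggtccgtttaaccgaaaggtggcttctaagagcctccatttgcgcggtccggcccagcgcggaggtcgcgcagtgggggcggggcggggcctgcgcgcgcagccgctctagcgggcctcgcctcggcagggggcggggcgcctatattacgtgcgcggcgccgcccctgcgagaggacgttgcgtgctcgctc
Hnrnpf: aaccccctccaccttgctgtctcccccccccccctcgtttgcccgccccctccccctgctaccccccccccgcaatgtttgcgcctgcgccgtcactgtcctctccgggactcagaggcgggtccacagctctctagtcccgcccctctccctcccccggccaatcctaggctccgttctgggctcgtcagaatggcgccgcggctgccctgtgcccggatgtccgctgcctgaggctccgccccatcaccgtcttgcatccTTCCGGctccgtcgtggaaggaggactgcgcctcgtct
Sf3b2: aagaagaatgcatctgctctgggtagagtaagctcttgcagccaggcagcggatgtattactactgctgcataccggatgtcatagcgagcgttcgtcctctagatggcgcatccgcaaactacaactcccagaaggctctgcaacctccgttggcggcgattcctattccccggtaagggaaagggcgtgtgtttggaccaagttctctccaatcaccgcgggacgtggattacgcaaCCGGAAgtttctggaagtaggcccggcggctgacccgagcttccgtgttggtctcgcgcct
Sf3b1: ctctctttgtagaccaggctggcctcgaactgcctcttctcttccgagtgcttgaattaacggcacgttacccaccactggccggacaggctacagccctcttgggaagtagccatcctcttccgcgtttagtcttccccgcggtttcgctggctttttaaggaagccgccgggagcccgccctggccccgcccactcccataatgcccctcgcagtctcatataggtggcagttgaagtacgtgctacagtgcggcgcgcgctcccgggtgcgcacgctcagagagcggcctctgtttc

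At Hnrnpa2b1 the centre of the match lay 27 bp from the ETV5 summit of 185 fragments, at Hnrnpd 70 bp from that of 167, at Sf3b2 72 bp from that of 118 and at Hnrnpf 123 bp from that of 130 fragments. At Hnrnpu the match lay 19238 bp from the highest peak, which is the one nearest to Cox20. The ETV5 summit of Sf3b1, 130 bp downstream of the start, lay outside the window, so that the absence of a match says nothing of the bases under it.

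Snrpe and Sf3b6, chosen after their values were seen, each hold 3 matches, the most of any member. In Snrpe (chr1:133610231-133610530, minus strand) a TTCCGG and a CCGGAA overlap 4 to 11 bases after the start, and in Sf3b6 (chr12:4817358-4817657, plus strand) the matches lie between 84 and 34 bases before it.
Snrpe: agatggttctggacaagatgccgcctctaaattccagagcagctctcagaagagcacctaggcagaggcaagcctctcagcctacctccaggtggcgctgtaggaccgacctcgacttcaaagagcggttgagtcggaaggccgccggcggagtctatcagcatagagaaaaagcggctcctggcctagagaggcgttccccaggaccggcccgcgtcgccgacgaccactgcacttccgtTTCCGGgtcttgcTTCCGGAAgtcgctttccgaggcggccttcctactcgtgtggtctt
Sf3b6: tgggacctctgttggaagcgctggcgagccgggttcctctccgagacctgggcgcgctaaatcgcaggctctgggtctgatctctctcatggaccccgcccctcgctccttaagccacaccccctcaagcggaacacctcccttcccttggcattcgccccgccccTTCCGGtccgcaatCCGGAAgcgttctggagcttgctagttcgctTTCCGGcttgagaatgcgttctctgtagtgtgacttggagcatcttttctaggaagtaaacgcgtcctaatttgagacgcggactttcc

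The ETV5 summit of Snrpe lay 1 bp from the centre of the overlapping pair and had 88 fragments. That of Sf3b6 lay 101 bp from the centre of its nearest match and had 25 fragments (16.2 to 36.9), below Snrpe by more than counting error. Both windows hold 3 matches, and the part of match number or distance in the pileups was not tested. Over the 23 members with a match in the window nearest to the summit, the nearest match lay at a median of 79 bp from the highest ETV5 summit, within 100 bp in 13 and within 250 bp in 20. Matches were sought only in the window around the start, close to which most of these summits lie. Short distances are therefore in part set by the search, and no distance over all genes was computed. Members with a match and ETV5 had a median highest pileup of 67 fragments (25 to 185, n = 23), against 38 (11 to 155, n = 21) for those without, with median GC contents of 60.3 and 66.3%. Over all genes with ETV5 and a window these medians were 49 and 26 fragments (n = 3264 and 7787). The ranges overlapped widely.

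Across genes the pileups of both lists moved together only in part. Over the 50 members with both marks, the highest ETV5 pileup and the highest H3K4me3 pileup gave Spearman's rho of 0.387 and Pearson's r of 0.428. Over all 12377 such genes these were 0.485 and 0.371. ETV5 pileup and H3K4me3 length gave Spearman values of 0.358 over members and 0.383 over all genes. The points are genes of the same 2 libraries and are not independent replicates. The lowest H3K4me3 pileup among the 50 was that of Srsf12, which also had the lowest ETV5 pileup, whereas Hnrnpc combined 391 H3K4me3 fragments with 26 ETV5 fragments, and Sf3b2 combined 257 H3K4me3 fragments at its own start with 118 ETV5 fragments.

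**Figure D4:**
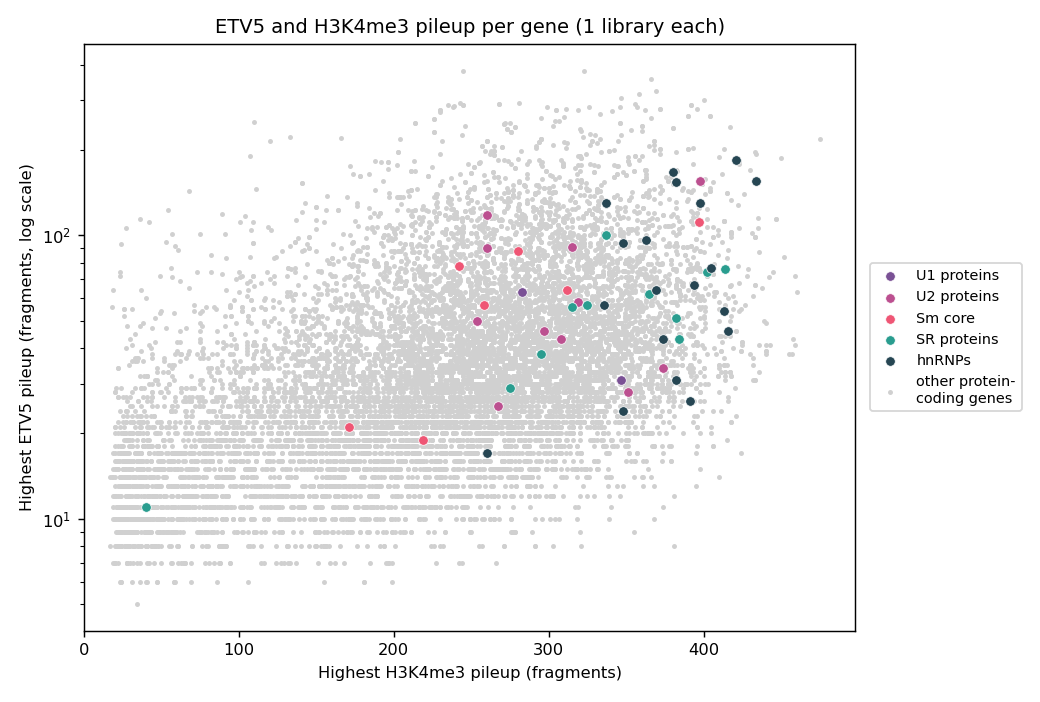
Highest ETV5 pileup (fragments, log axis) against highest H3K4me3 pileup (fragments) of the 50 splicing factor genes with both marks, by role, over all other such protein-coding genes in grey. The Spearman correlation is 0.387 over the 50 genes, and the point at the lower left is Srsf12.

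Another 99 genes of splicing, which the symbol rule does not take, were examined beside them. They include U1, U4/U6, U5 and minor spliceosome proteins with symbols in Snrnp, the U2 auxiliary factors, Prpf and Lsm genes, helicases, and regulators such as SR protein kinases. All 99 carried H3K4me3 and 98 had ETV5 (99.0%), all but the X-linked Rbmx, a relative of the hnRNPs with a 2085-bp H3K4me3 peak. Among them Ewsr1, which encodes an RNA-binding protein, had an ETV5 peak of 239 fragments (210 to 271). The median highest pileup was 57.5 fragments for the 50 members and 45 for these 98 genes, and the median longest H3K4me3 peak 2158 bp for the members and 1632 bp for these 99 genes.

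Beside other housekeeping families chosen by symbol, the splicing factor genes as a set had longer H3K4me3 peaks and similar or somewhat higher ETV5 pileups. The median highest ETV5 pileup was 57.5 fragments for splicing factor genes, against 51 for 82 cytosolic ribosomal, 43 for 77 mitochondrial ribosomal and 40 for 48 proteasome genes. The share above the all-gene median pileup was 82% for splicing factor genes, against 85.4% for cytosolic ribosomal, 64.9% for mitochondrial ribosomal and 62.5% for proteasome genes. The median longest H3K4me3 peak was 2158 bp for splicing factor genes, against 1597, 1337 and 1428 bp for the same 3 families. The share above the all-gene upper quartile of length was 59.6% for splicing factor genes, against 13.4, 10.3 and 18.8%. CCGGAA was in the window of 51.1% of splicing factor genes, against 53.8, 58.0 and 51.2%. The greater H3K4me3 length lay mainly in the hnRNP and SR genes, with medians of 2960 and 2180 bp. Medians of the U2, U1 and Sm genes, 1549, 1452 and 1256 bp, did not exceed the 1597 bp of cytosolic ribosomal genes. The U2 and U1 medians did exceed the 1337 bp of mitochondrial ribosomal and the 1428 bp of proteasome genes, and the Sm median exceeded neither. With 1 library per antibody none of these differences was tested.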

How the data were processed

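Libraries from mouse AT2 cells were assigned by their labelled antibody, giving 1 ETV5, 1 H3K4me3 and 1 input library. Peaks were called per library against an input with MACS2 version 2.1.0.20150420, per the file headers, at a q-value threshold of 0.05 and at most 1 tag per position. The control used for ETV5 has another name than the labelled input sample, which was used for H3K4me3, per the file headers. For the aligner, no name is given in the sources used here. Per the file headers the pileup signal is the fragment count at the summit with the larger library scaled down; the input was larger in both lists, so ChIP pileups are unscaled. Each peak's fold ratio, its −log10 q-value and its −log10 p-value are as the authors deposited them and served here only to rank peaks and to set stricter thresholds. ETV5 tags were 75 bp with fragments of 203 bp, and H3K4me3 tags 50 bp with fragments of 288 bp.

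The labels name build mm9, but 64.3% of 15129 H3K4me3 summits lay within 1 kb of an annotated GRCm38 start, so coordinates are given as GRCm38. Genes and promoter windows came from RefSeq (GRCm38.p6). Start sites and strand were read from the windows. Overlap required 1 bp. Python 3.11.15, numpy 2.4.6, pandas 2.3.3, scipy 1.17.1 and matplotlib 3.10.9 were used, and the steps were tested on simulated data. The members and lists were chosen with earlier results of these data known. Named are, per role, the 4 highest and 2 lowest members by ETV5 pileup, members without a mark, those with the longest and shortest H3K4me3, with 3 or more ETV5 peaks, or with a shared highest peak; most others are given by value. The planned role groups held Snrnp genes, which the symbol rule does not take; they were counted among the other splicing genes. Alternatives were other windows, peak thresholds, peak assignments and motifs. Of the lists, 9 ETV5 and 5 H3K4me3 peaks off the assembled chromosomes were left out. The highest values among the other splicing genes are in part not reported here.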

Additional observations from a re-analysis of the deposited data

How the results depend on the processing

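Of 50 values under alternative settings, 47 stayed close to the reported ones (counts within 1.5 times, medians within the binomial interval of the median). The counts of members with ETV5, with H3K4me3 and with ETV5 inside H3K4me3 were 50, 52 and 50 of 53. They could not rise 1.5 times, so that only a large fall would have been classed as a change. Leaving out Hnrnpa1l2-ps2, which had no ETV5, could not alter the count of 50. The count with H3K4me3 was 45 with each peak given only to its nearest gene, and was still classed as close. The count of members with ETV5 ranged from 43, with peaks counted only within 1 kb of the gene's own start (47 members with an annotated start, a setting added after the data were seen), to 51 with a window of 20 kb. At a fold of at least 10, Hnrnpa1, Hnrnpm, Snrpd2, Snrpf and Srsf12 lost their peak, at −log10 q of at least 10 Srsf12 did, and with each peak given only to the nearest gene Hnrnpdl, Hnrnpk and Snrpd3 did. The number of members sharing their highest ETV5 peak was 47 with a window of 20 kb, against 25 with 5 kb, since a wider window reaches more genes. With each peak given only to its nearest gene, sharing has no value by construction. The number of members with a motif was 9 for CCGGAAGT and 45 for GGAA, against 24 for CCGGAA, as a longer motif is rarer. The ETV5 depth limits the lowest counts, such as those at Srsf12, Hnrnpa1, Snrpf and Snrpd2, whose intervals overlap each other. No paired analysis was possible because each antibody has 1 library.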

Other observations

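The 5 annotated pseudogenes of the same families, Srsf3-ps, Snrp1c-ps2, Hnrnpa1l2-ps, Snrpert and Snrp1c-ps1, had no ETV5 and no H3K4me3 summit inside them or within 5 kb. Of 1004 annotated snRNA genes, which include many scattered copies, 44 (4.38%) had an ETV5 summit inside or within 1 kb and 35 (3.49%) an H3K4me3 summit. For 1340 snoRNA genes these counts were 54 (4.03%) and 54. No share over all annotated pseudogenes or over other small loci was computed. Whether the counts of pseudogenes, snRNA and snoRNA genes differ from such a background was therefore not tested.

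Hnrnpk holds the microRNA gene Mir7-1 (chr13:58392779-58392886) inside its extent and Sf3a3 holds Mir697 (chr4:124731694-124731802).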
